A study of Mus musculus with 2 samples.

Results

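The genes described here are metallothioneins and antioxidant genes, which bind metal ions or remove reactive oxygen species. They were chosen by name: of 10 listed genes, 6 were analysed among the 10666 genes of the expression table, namely *Mt2*, *Mt3*, *Txnrd1*, *Gclm*, *Nqo1* and *Prdx1*. *Mt1*, *Slc30a1*, *Gstm1* and *Hmox1* were not analysed here. Single-cell RNA-seq was carried out on neurospheres, which are clusters of neural progenitors grown in suspension and here came from the dorsal telencephalon of wild-type C57BL/6 mouse embryos at embryonic day 14.5. Both cultures were grown with 10 ng/ml EGF and 10 ng/ml bFGF in a medium with B27 (without retinoic acid) and N2 supplements. There were 2 replicate cultures of 1 condition, with 5748 cells in culture 1 and 7057 cells in culture 2, so every value is a description of a culture and no test between groups was possible. Nothing in the labels states whether the cultures came from separate embryos or litters.

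Cells of culture 1 had a median of 19477 UMIs (quartiles 15018 and 24371) and cells of culture 2 a median of 14637 (quartiles 12271 and 17565). The libraries shared 48 cell barcodes, carried by 96 cells. Of 7 listed neural progenitor markers 5 were analysed, of which *Nes*, *Vim* and *Fabp7* were each above 0 in at least 89.8% of the cells of either culture, *Notch1* in 47.3% and 37.0% and *Pax6* in 21.1% and 23.1%. The forebrain marker *Lhx2* was above 0 in at least 43.6% of the cells of either culture and *Emx2* in 21.8% and 21.1%. Among 4 markers of oligodendrocyte progenitors, *Olig2* was above 0 in 97.3% and 91.9% of cells, but *Cspg4* in 11.8% and 13.7%, *Pdgfra* in 8.77% and 1.81% and *Sox10* in 4.26% and 0.751%. None of the listed markers of microglia, vessel cells and red blood cells was analysed here.

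Metallothioneins are small, cysteine-rich proteins that hold zinc and copper. Transcription of *Mt2* is known to be raised by the zinc-sensing factor MTF1, which binds metal response elements (MREs) in the *Mt2* promoter, and by glucocorticoids. *Mt2* is expressed in most tissues, whereas *Mt3* is largely a gene of the nervous system, and in brain the metallothioneins are known as genes of astroglia. The antioxidant genes belong to a second circuit, in which the factor NRF2 binds antioxidant response elements (AREs) once it escapes its inhibitor KEAP1: *Txnrd1* encodes the cytosolic thioredoxin reductase, *Gclm* the modifier subunit of the enzyme that starts glutathione synthesis, *Nqo1* a quinone reductase and *Prdx1* a peroxiredoxin that reduces hydrogen peroxide.

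In GRCm38 (GENCODE vM21), *Mt3* lies on chromosome 8 from 94152607 to 94154146 and *Mt2* from 94172664 to 94173568, both on the plus strand with 18517 bases between them. *Nqo1* is on the same chromosome (107388225 to 107403206, minus strand). *Txnrd1* is on chromosome 10 (82833951 to 82897712), *Gclm* on chromosome 3 (122245557 to 122270732) and *Prdx1* on chromosome 4 (116685544 to 116700822), each on the plus strand. All 6 are protein-coding.

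Since the metallothioneins turned out to vary together, the sequence upstream of each is shown. The following lines give the 250 bases before the start site in RefSeq (GRCm38.p6), 5′ to 3′ on the plus strand, from chr8:94172368-94172617 for *Mt2* and chr8:94152357-94152606 for *Mt3*. Capitals mark matches to the MRE core, searched as TGCACNC and TGCGCNC on both strands.
Mt2: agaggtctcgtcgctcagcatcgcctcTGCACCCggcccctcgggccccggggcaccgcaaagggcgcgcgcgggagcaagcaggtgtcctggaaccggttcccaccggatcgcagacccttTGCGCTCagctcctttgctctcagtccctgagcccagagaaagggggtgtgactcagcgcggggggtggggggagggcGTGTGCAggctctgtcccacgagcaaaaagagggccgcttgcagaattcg
Mt3: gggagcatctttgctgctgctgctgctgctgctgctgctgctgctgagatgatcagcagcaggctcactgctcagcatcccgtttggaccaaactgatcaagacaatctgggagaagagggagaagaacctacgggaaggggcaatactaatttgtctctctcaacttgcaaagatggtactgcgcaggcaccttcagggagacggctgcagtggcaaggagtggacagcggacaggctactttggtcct
The *Mt2* window held 3 matches, which begin 223, 128 and 50 bases before the start, and the *Mt3* window held 0. Of 32851 promoter windows of this length in the same table, 21.4% held at least 1 match and 1.26% at least 3. The ARE core, searched as TGACNNNGC on both strands, was found once each before *Mt2* (79 bases before the start, outside the MRE matches), *Gclm*, *Prdx1* and 1 of 3 start sites of *Txnrd1*, and not before *Mt3* or *Nqo1*. It was held by 10.2% of all windows. The *Gclm* window also held 2 MRE matches, of which 1 overlaps its ARE match. These are matches of letters, and no binding was measured.

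*Mt2* was above 0 in 82.8% of the cells of culture 1 and 84.5% of those of culture 2. Its depth-normalized value had a median of 3.57 in culture 1 (5th and 95th percentiles 0 and 14.9) and of 4.39 in culture 2 (0 and 21.9). *Mt3* was above 0 in 95.5% and 97.8% of cells, with a median of 14.7 in culture 1 (0.991 and 41.3) and of 14.3 in culture 2 (1.72 and 59.3). In culture 1 81.5% of cells were above 0 for both genes, and in culture 2 83.2%. Cells at 0 for both made up 3.24% of culture 1 (186 cells) and 0.949% of culture 2 (67 cells).

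The antioxidant genes split into a pair of intermediate detection, 1 found in nearly every cell and 1 that was rarely found. *Prdx1* was above 0 in 99.9% and 99.7% of cells, with a median of 19.6 in culture 1 and 16.9 in culture 2. *Txnrd1* was above 0 in 86.5% and 79.8% of cells (medians 2.07 and 1.85), and *Gclm* in 69.7% and 63.9% (medians 1.21 and 1.17). *Nqo1* was above 0 in only 5.98% of the cells of culture 1 (exact 95% binomial interval 5.39% to 6.63%) and 2.30% of those of culture 2 (1.96% to 2.67%), where the interneuron marker *Gad1* was above 0 in 3.25% and 0.709%. The intervals cover counting error only. No cell type that should lack a given gene could be set apart here, so the shares of cells above 0, those of *Mt2* and *Mt3* included, were not separated from free RNA.

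**Figure D1:**
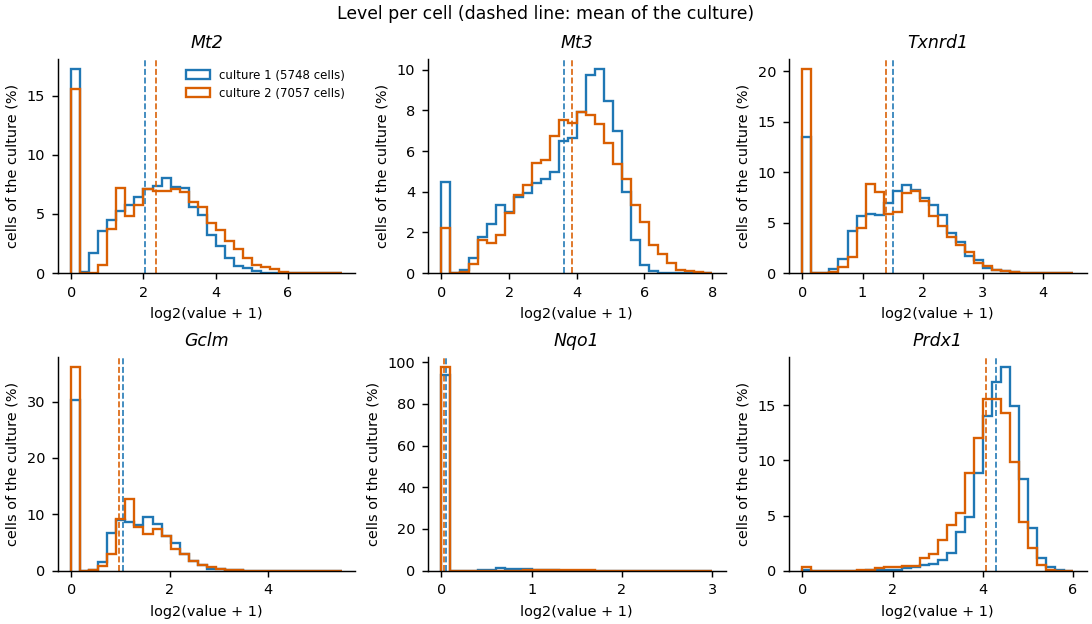
Distribution of log2(value + 1) over cells for each gene, as a percentage of the cells of culture 1 (blue) and culture 2 (orange), with the culture mean as a dashed line. *Mt2* and *Mt3* are spread over a wide range of levels, *Prdx1* lies in a narrow peak, and *Nqo1* is at 0 in most cells.

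The metallothioneins were among the most variable genes for their level. The coefficient of variation (CV) of *Mt3* over cells was 0.770 in culture 1 and 0.979 in culture 2. This was 2.08 and 2.67 times the CV that a quadratic trend over genes gives at the same mean, higher relative to the trend than in 99.6% and 99.8% of genes. The CV of *Mt2* was 1.04 and 1.22, which is 1.77 and 2.20 times the trend, above 99.3% and 99.6% of genes. The antioxidant genes had no such excess: the CV of *Txnrd1*, *Gclm* and *Prdx1* lay between 0.911 and 1.08 times the trend in both cultures. *Nqo1* was below the mean value of 0.05 from which the trend was fitted.

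Between the cultures, the mean value of *Mt2* was 4.95 in culture 1 and 6.84 in culture 2, a 1.38-fold higher mean in culture 2. With the depth normalization undone the means were 5.94 and 5.92, while undoing it moved the median log2 ratio of culture 1 to culture 2 over all genes from 0.09 to 0.48. Relative to that median, *Mt2* was lower in culture 1 by a log2 ratio of -0.56 before and -0.47 after. The mean of *Mt3* was 16.8 and 20.4, 1.22-fold higher in culture 2, and with normalization undone it was 1.15-fold higher in culture 1, which is a log2 ratio of -0.38 and -0.27 relative to the median gene. The other 4 genes had the higher mean in culture 1 by both scalings, by 1.23-fold for *Nqo1*, 1.16-fold for *Prdx1*, and 1.08-fold for *Txnrd1* and *Gclm* in the normalized values. Relative to the median gene, however, *Txnrd1* had log2 ratios of 0.02 before and 0.02 after, and *Gclm* 0.02 and 0.08. These 2 genes thus lay near the general shift of all genes. *Prdx1* had 0.12 and 0.18 relative to the median, and *Nqo1* 0.21 and 0.38. None of the 6 reached a 1.5-fold difference, as 4.62% of all genes did. With normalization undone, 31.2% of all genes were past 1.5-fold, including *Nqo1* and *Prdx1*.

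*Mt2* and *Mt3* varied together from cell to cell, and no other pair of the 6 genes reached an r of 0.2 in both cultures. Over cells, the Pearson correlation of log2(value + 1) between *Mt2* and *Mt3* was 0.634 in culture 1 (5748 cells) and 0.387 in culture 2 (7057 cells). In both cultures, mean *Mt2* was higher in each group of cells with more *Mt3*, where 4 groups of equal size (quartile groups) were made by ordering the cells of a culture by *Mt3*. The mean *Mt2* value was 1.32 in the lowest group of culture 1, then 4.04 and 6.28, and 8.15 in the highest. In culture 2 the groups had means of 3.77, 5.48, 7.01 and 11.1. Cells of a culture share a library and each cell's depth enters both genes, so the correlation is a description of these libraries. Among all pairs of genes, r was at least 0.2 in both cultures for 0.034% of pairs, in culture 1 for 0.103% and in culture 2 for 0.0362%. Of the 15 pairs of the 6 genes, 1 reached it in both cultures, 5 in culture 1 and 1 in culture 2.

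**Figure D2:**
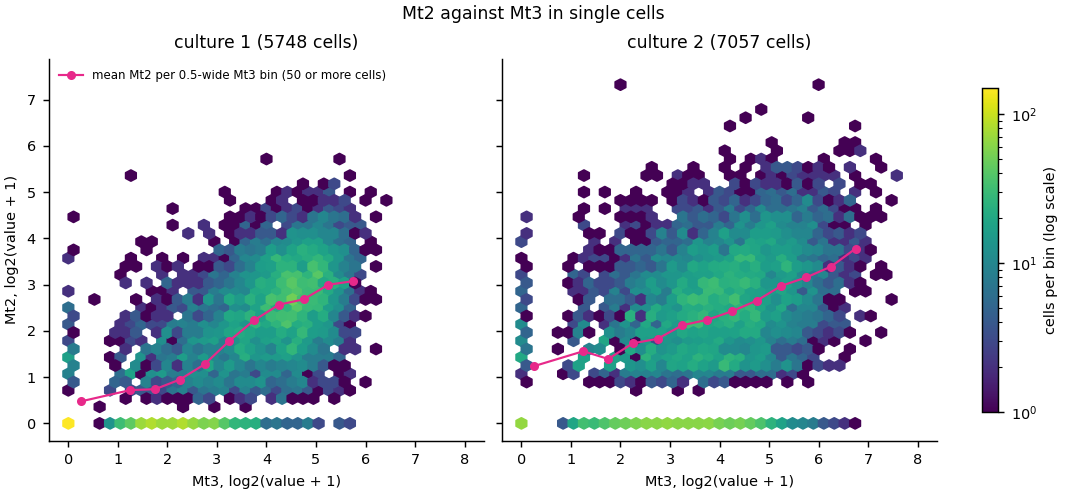
*Mt2* against *Mt3* in single cells of each culture, both as log2(value + 1). Colour gives the number of cells per hexagon on a log scale and the pink line the mean *Mt2* per bin of *Mt3* 0.5 wide that holds at least 50 cells. The line climbs in both cultures and starts higher in culture 2, and the row along the bottom holds cells with *Mt2* at 0.

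The *Mt2*-*Mt3* correlation was present at every cell-cycle position and depth examined. Within 8 equal classes of position its lowest and highest values were 0.536 and 0.698 in culture 1, and 0.368 and 0.485 in culture 2. Within 3 equal groups of cells ordered by total UMIs it ranged from 0.548 to 0.607 and from 0.373 to 0.405. After position and depth had been regressed out it was 0.512 and 0.381.

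The genes lie near each other on chromosome 8, and 19 other genes analysed overlap the interval within 1000000 bases of them. The neighbour with the strongest correlation was *Coq9*, which functions in ubiquinone synthesis, with an r with *Mt3* of 0.319 in culture 1 and 0.135 in culture 2 and with *Mt2* of 0.222 and 0.0521. The *Mt2*-*Mt3* values exceeded those of every analysed neighbour in both cultures. Every neighbour also had a lower mean than *Mt2* and *Mt3*, at most 3.53 in culture 1 and 3.74 in culture 2. The neighbours were not matched for level, and the part of shared location in the correlation was not tested.

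In the normalized values, the antioxidant genes were nearly uncorrelated with each other. Over their 6 pairs the median r was 0.0363 in culture 1 and 0.0164 in culture 2, where the median over all pairs of genes was 0.00125 and 0.00175. The highest was *Gclm*-*Prdx1* in culture 1 at 0.122, and the same pair had 0.0185 in culture 2. Small as they are, these values were above those of 99.6% and 85.9% of all pairs of genes. *Txnrd1* had no r above 0.048 in size with any of the other 5 genes in the normalized values. With normalization undone, where depth is shared by all genes, *Gclm*-*Prdx1* was 0.411 and 0.177 and *Txnrd1*-*Prdx1* 0.338 and 0.198. The weak correlations of the normalized values are given as values only.

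*Gclm* was the antioxidant gene that followed the metallothioneins with the same sign in both cultures. Its r with *Mt2* was 0.214 and 0.0975 and with *Mt3* 0.253 and 0.0798. *Prdx1*, in contrast, correlated positively with both metallothioneins in culture 1 (0.307 with *Mt2*, 0.344 with *Mt3*) and weakly negatively in culture 2 (-0.0264 and -0.101). The mean *Prdx1* value was 16.7 in the lowest and 22.0 in the highest *Mt3* quartile group of culture 1, and 18.1 and 16.1 in those of culture 2. In total 6 of the 15 pairs had opposite signs in the cultures, a share of the kind found over all pairs of genes (42.2%). With normalization undone *Mt3*-*Prdx1* was 0.653 and 0.139, positive in both cultures.

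**Figure D3:**
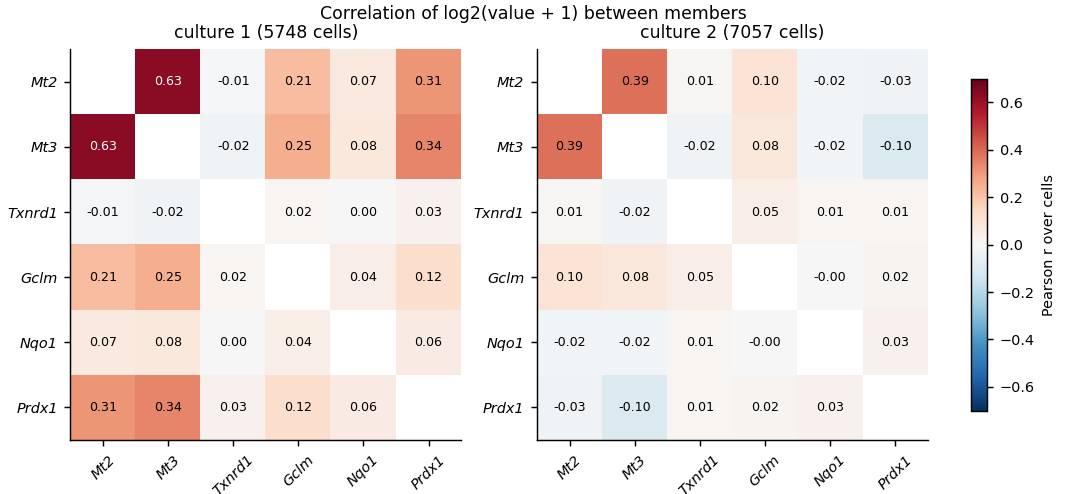
Pearson r over cells of log2(value + 1) for each pair of the 6 genes in culture 1 (left) and culture 2 (right), from blue (negative) to red (positive). The *Mt2*-*Mt3* square is the darkest in both, and the *Prdx1* row changes colour between the cultures.

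The depth of cells moved with the metallothioneins in culture 1. The r of *Mt3* with log2 total UMIs was 0.433 in culture 1 and 0.151 in culture 2, and that of *Mt2* was 0.297 and 0.0640. In culture 1 the lowest *Mt3* quartile group had a median of 14146 UMIs and the highest 21656, against 13733 and 15075 in culture 2. *Pdgfra* and *Dcx*, markers of oligodendrocyte progenitors and neuroblasts, were higher in the lowest *Mt3* group of both cultures. Mean *Pdgfra* was 0.319 in the lowest and 0.00828 in the highest group of culture 1, and 0.221 and 0.0158 in those of culture 2. Mean *Dcx* was 0.277 and 0.00695 in culture 1, and 0.167 and 0.0523 in culture 2. Over cells, *Dcx* had an r with *Mt3* of -0.290 and -0.0509. The other analysed markers of neuroblasts and neurons did not share this sign in culture 2, with -0.197 and 0.0294 for *Map2* and 0.00615 and 0.0173 for *Gad1*. Of the oligodendrocyte progenitor markers, *Olig2*, *Pdgfra* and *Sox10* had a negative r with *Mt3* in both cultures, but *Cspg4* had -0.136 and 0.00463. The part of depth and of cells with *Pdgfra* or *Dcx* in the difference between the cultures was not tested.

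The genes most like *Mt2* included markers of astroglia. By the value of r nearest 0 of the 2 cultures, the 10 highest genes included *Mt3*, *Igfbp2*, *S100a11*, *Apoe*, *Slc1a3*, *Pea15a*, *Acta2*, *Pcp4l1* and *Slc4a4*. *Igfbp2*, which binds insulin-like growth factors, had an r of 0.601 and 0.324, and *Slc1a3*, the glutamate transporter of radial glia and astrocytes, 0.549 and 0.227. *Apoe*, the lipid carrier secreted by astroglia, had 0.430 and 0.229. Only 11 genes, or 0.103% of those analysed, reached 0.2 in both cultures. The lowest were *Basp1* (-0.569 and -0.296) and *Gap43* (-0.278 and -0.274), membrane proteins of growing neurites, followed by the translation genes *Eef1a1* and *Rps4x*.

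*Mt3* had many more such partners, 119 genes or 1.12% of those analysed. The level of *Mt3* was also higher than that of *Mt2*, with fewer cells at 0, and the part of level in this count was not tested. *Igfbp2* led the partners of *Mt3* with 0.759 and 0.565, a closer relation than that of *Mt3* to *Mt2* in both cultures. *Slc1a3* (0.695 and 0.482), *Pea15a*, *Slc4a4* and *Dbi* were also among its 10 nearest genes. Another 4 of the 10 encode parts of the respiratory chain or ATP synthase: *Cox8a* (0.554 and 0.482), *Atp5mpl*, *Atp5g1* and *Uqcrq*. At the other end *Basp1* again came first (-0.677 and -0.492), and *Eef1a1*, *Ptma* and *Rps3a1* were also among the 5 lowest.

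**Figure D4:**
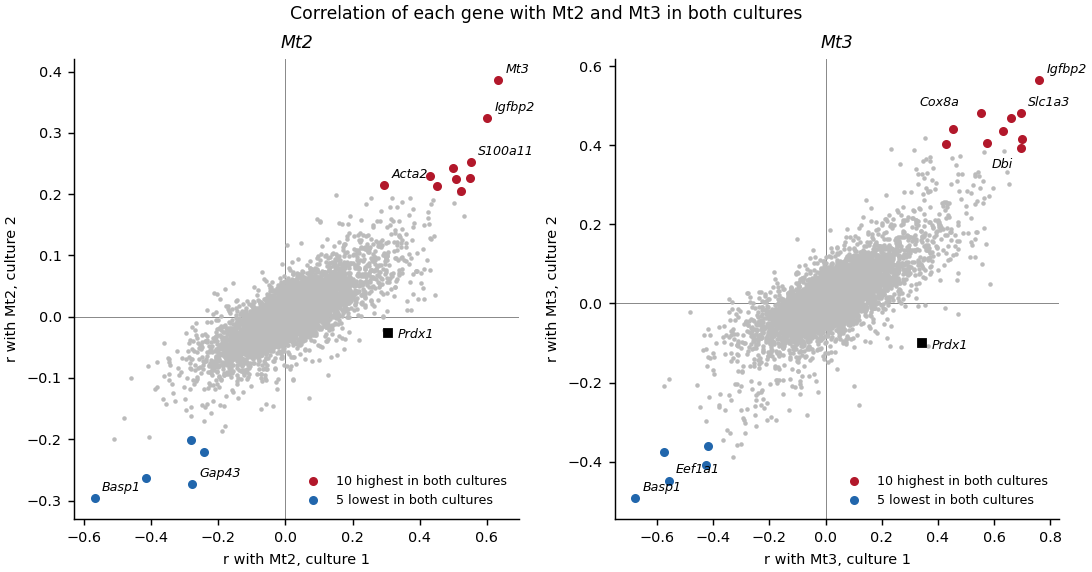
Pearson r of every analysed gene with *Mt2* (left) and *Mt3* (right) in culture 1 (horizontal axis) and culture 2 (vertical axis). Red points are the 10 genes highest in both cultures, blue points the 5 lowest and the black square *Prdx1*, which lies to the right of 0 in culture 1 and below 0 in culture 2.

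Of 7 astroglial markers analysed (12 listed), 2 had an r of at least 0.2 with *Mt2* in both cultures, *Slc1a3* and *Apoe*, and 5 with *Mt3*, which adds *Aldh1l1*, *Gja1* and *Id3*. *S100b* was not among them, with -0.0599 and 0.0607 for *Mt3*. The mean of the 7 markers had an r of 0.573 and 0.305 with *Mt2* and of 0.729 and 0.541 with *Mt3*. With this score added to position and depth as a covariate, the *Mt2*-*Mt3* correlation was 0.324 in culture 1 and 0.274 in culture 2. Mean *Apoe* was 0.254 in the lowest and 4.48 in the highest *Mt3* quartile group of culture 1, and 1.31 and 11.4 in those of culture 2. Mean *Olig2* was 7.08 and 4.60, and 6.15 and 5.11, so it was lower where *Mt3* was higher. With cells ordered by total UMIs instead, the lowest and highest groups had 7.11 and 4.65 in culture 1, and 6.12 and 5.22 in culture 2. The part of depth in the fall of *Olig2* was not tested. None of the 4 oligodendrocyte progenitor markers had an r of 0.2 or more in size with either gene in both cultures. In culture 1 *Pdgfra* had -0.280 with *Mt2* and -0.310 with *Mt3*, and *Sox10* -0.204 and -0.227, and in culture 2 the values of both genes lay between -0.0949 and -0.0305. With *Mt3*, *Olig2* had -0.189 in culture 1 and -0.0912 in culture 2, and *Cspg4* -0.136 and 0.00463.

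The other genes had fewer or weaker relations. *Prdx1* was nearest to the glycolytic enzyme genes *Ldha* (0.319 and 0.302) and *Eno1* (0.251 and 0.324) and to *Cd81* (0.267 and 0.252), which had similar values in both cultures, unlike its values with the metallothioneins. *Gclm* was nearest to *Igfbp2* (0.253 and 0.0992), *Mt2* and *Tubb6*. The 3 genes nearest to *Txnrd1*, *Ptma*, *Stmn1* and *Hmgb1*, had an r of 0.106 to 0.118, and those nearest to *Nqo1* had less than 0.045.

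Along the cell cycle, none of the 6 genes passed the call used here. The position is an angle that the authors computed from cell-cycle genes, and a gene was called where 2 harmonics of that angle gave an R² of 0.05 or more in each culture, which held for 4.01% of all genes. Where cells carried a stage name by the SchwabeCC method, the commonest was G1.S from 0.25π to 0.75π, S from 0.75π to 1π, G2.M in the class that starts at 1π and M.G1 from 1.5π to 2π in both cultures. *Mt2* had an R² of 0.0558 in culture 1 and 0.0152 in culture 2, and *Mt3* 0.0399 and 0.00808. The antioxidant genes had at most 0.0164, the value of *Prdx1* in culture 2. The lower of the R² values was nevertheless above that of 80.5% to 89.5% of genes for every one of the 6 but *Nqo1*. With log2 total UMIs and its square as covariates, the partial R² was 0.118 for *Mt2* and 0.123 for *Mt3* in culture 1, and 0.0218 and 0.0100 in culture 2.

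In the normalized values, *Mt2* had its low and high points at similar positions in the cultures. Its periodic loess line was lowest at 1.02π in culture 1 and at 0.79π in culture 2, and highest at 1.74π and 1.60π, with a height of 0.72 and 0.45 between them on the log2 scale. With normalization undone the minima lay further apart, at 1.115π and 0.66π. The maxima were then at 1.75π and 1.455π, with heights of 0.50 and 0.28. In culture 1 the mean *Mt2* value was 4.99 in the class from 0 to 0.25π, 3.46 in the class that starts at 1π, and 7.87 from 1.5π to 1.75π, a class of 64 cells. In culture 2 it was lowest at 4.58 from 0.75π to 1π and stood at 7.78 from 1.5π to 1.75π (189 cells) and at 7.80 from 1.75π to 2π. By deposited stage, *Mt2* was lowest in S (3.58 and 5.52) and highest in M.G1 (6.29 and 7.60) in both cultures.

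The high point of *Mt3* did not repeat its position between the cultures. Its maximum was at 1.75π in culture 1 but at 0.24π in culture 2. Its minimum was at 1.12π and 1.33π, about as near each other as the minima of *Mt2*. The heights were 0.67 and 0.36. The line of the astroglial score was highest at 1.94π and 0.31π, with heights of 0.21 and 0.04. With that score as a covariate, the partial R² of *Mt3* was 0.0134 and 0.0100, and that of *Mt2* was 0.0355 and 0.0177. Total UMIs per cell, by which each value was scaled, were highest at 0.89π and 0.92π, near the low point of *Mt2*.

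The loess lines of the antioxidant genes with intermediate levels were highest after 1π in both cultures. *Txnrd1* had its maximum at 1.13π and 1.19π, with heights of 0.21 and 0.26, and *Gclm* at 1.31π and 1.17π, with heights of 0.22 and 0.20. By deposited stage, mean *Txnrd1* was highest in G2.M in both cultures (2.43 and 2.25), and *Gclm* in G2.M in culture 1 (1.49, with 1.44 in M.G1) and in M.G1 in culture 2, where G2.M came next at 1.38. The *Prdx1* line was nearly flat, with heights of 0.07 and 0.10. Its class means were nevertheless highest in the 2 classes before 1.75π in both cultures. They were 22.9 and 22.0 in culture 1, and 18.8 and 20.6 in culture 2. Those classes had the lowest median UMIs in each culture, and in culture 1 held 85 and 64 cells. With normalization undone, the *Prdx1* line was highest at 0.845π and 0.75π and lowest at 1.775π and 1.835π, with heights of 0.31 and 0.24. The height of *Nqo1* was at most 0.02.

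**Figure D5:**
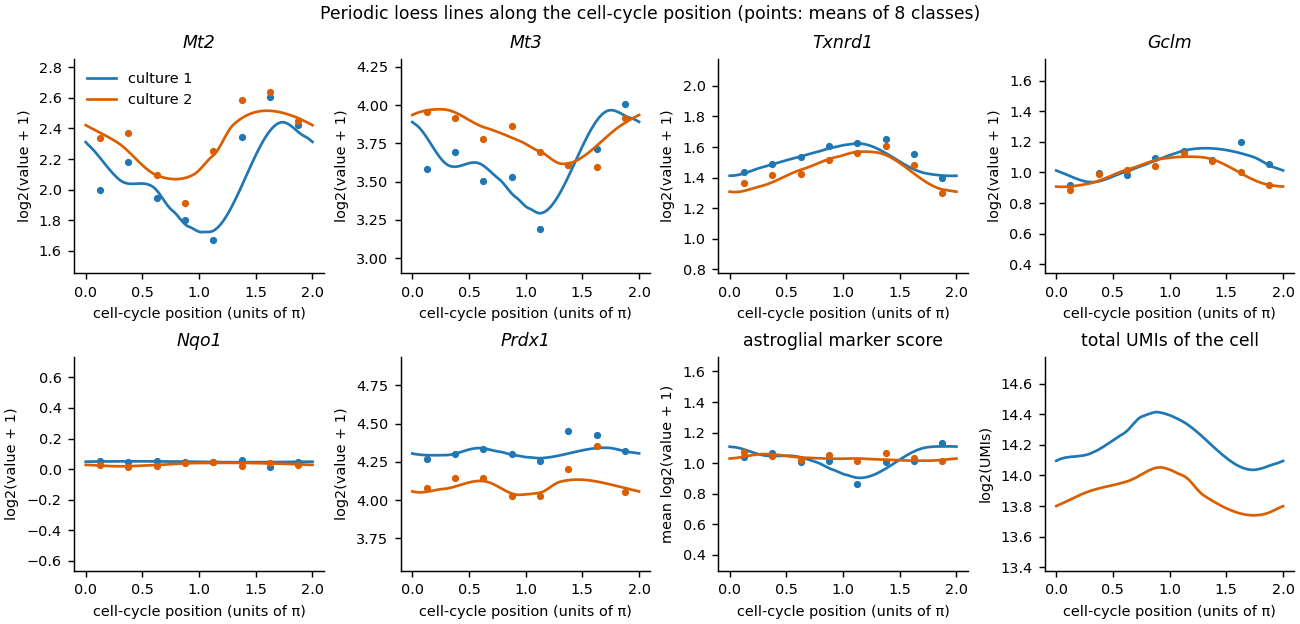
Periodic loess lines of log2(value + 1) along the cell-cycle position, in units of π, for each gene, the mean of the 7 astroglial markers and log2 total UMIs, in culture 1 (blue) and culture 2 (orange). Points are means of 8 equal position classes and lie off the lines where a class is small, since each local fit draws on many cells; every panel spans at least 1.4 log2 units.

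The wider pathways gave the same count. In 6 lists of metal handling, NRF2 regulators, NRF2 targets, glutathione, thioredoxin and superoxide genes, 71 of 112 listed genes were analysed, 65 of them other than the 6 described above, and 0 reached an R² of 0.05 in both cultures against 4.01% of all genes. The median of the lower R² over the 71 genes was 0.00424, where over all genes it was 0.00183. The nearest to the threshold was *Selenow*, a selenoprotein, at 0.0764 and 0.0450, followed by *Prdx4*, the peroxiredoxin of the endoplasmic reticulum, at 0.0651 and 0.0364. None of the 71 differed 1.5-fold between the cultures, as 4.62% of all genes did.

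The r of the pathway genes with the metallothioneins is given for the 69 genes of the 6 lists other than *Mt2* and *Mt3*. With *Mt2*, 0 of them had an r of at least 0.2 in both cultures, a share near the 0.103% of all genes. With *Mt3* it was reached by 2, or 2.90%, against 1.12% of all genes. These were *Mgst3*, a microsomal glutathione transferase (0.216 and 0.275), and *Selenow* (0.214 and 0.214). *Mtf1*, which encodes the zinc-sensing activator, was above 0 in 26.5% and 23.7% of cells and had an r with *Mt2* of 0.0150 and 0.00972. *Txn1*, which encodes thioredoxin, the substrate of *Txnrd1*, had an r with *Mt3* of 0.534 in culture 1 and 0.181 in culture 2. *Nfe2l2*, which encodes NRF2, had 0.348 and 0.0668, and *Keap1* 0.0225 and 0.0126. The values in culture 1 were the higher ones for *Txn1* and *Nfe2l2*, as they were for *Prdx1* and *Gclm*.

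Lists of other hormone and stress responses held 8 analysed genes of the glucocorticoid response, 11 of the hypoxia response and 7 of the integrated stress response. Of these genes 0 had an r of at least 0.2 with *Mt2* or with *Mt3* in both cultures, which at 0.103% and 1.12% of all genes is no result about lists of this size. The highest values with *Mt3* were found in culture 1 and were lower in culture 2. The hypoxia-induced glycolytic genes *Ldha* and *Eno1* had 0.472 and 0.471 in culture 1, and -0.0255 and 0.0779 in culture 2. The serine synthesis gene *Phgdh* had 0.330 and -0.00711, the glucocorticoid target *Glul* 0.333 and 0.0875, and *Klf9* 0.315 and 0.0865. The receptor gene *Nr3c1* had 0.140 and 0.115.

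Some of these values depend on how reads were shared between similar transcripts. Of the 31-base words in the last 400 bases of the *Prdx1* transcripts, 39.5% also occur in transcripts of 3 other genes, so its values are uncertain to the extent that reads were split among them. The share was 0.649% for *Mt2*, 0.118% for *Gclm* and 0 for *Mt3*, *Txnrd1* and *Nqo1*.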

How the data were processed

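Expression was read from the authors' table of 10666 genes in 12805 cells. By the methods, the authors quantified spliced counts with Alevin (Salmon 1.3.0) against GRCm38, removed outlying cells (doublet scores included), mitochondrial genes and rarely detected genes, and normalized for library size. The deposited expression values are a signal on a linear scale. The authors' total UMIs of a cell add up its estimated counts. Other deposited values are the angle that gives a cell's position in the cell cycle and its stage name. The position was computed from the same cells. The labels name version 2 of the Chromium kit and the methods another version. Symbols were found for 10662 genes. Every per-cell column was mapped to a culture, all deposited cells were kept without a new search for doublets, and whole counts could not be recovered.

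Values were transformed as log2(value + 1). All genes were fitted with 2 harmonics of the position within each culture in Python 3.11.15 (numpy 2.4.6, scipy 1.17.1, pandas 2.3.3). Periodic loess lines (R 4.3.3) used data repeated 3 times around the circle, degree 2 and a span of 0.3. Correlations are Pearson r over the cells of a culture, and residual correlations followed removal of the harmonics, log2 total UMIs and its square. Quartile groups hold cells ordered by a gene within a culture. The harmonic fit was tested on simulated data. With 1 condition, no p-value is given. Figures were drawn with matplotlib 3.10.9.

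The members, gene lists and thresholds were chosen with earlier results of these data known. Genes are named if they are members, list genes with the highest means, marker genes, list genes that pass or come nearest to the R² threshold, or the genes with the highest or lowest r with a member in both cultures (10 and 5 for *Mt2* and *Mt3*, 3 for the others). This rule was set for *Mt1*, which was not analysed, and was applied to *Mt2* and *Mt3* instead. *Coq9*, *Mtf1*, *Mgst3*, *Prdx4* and *S100b* were singled out after their values were seen. Some genes that meet the rule are not reported here. Promoter sequences are those of RefSeq (GRCm38.p6), matched by symbol for all 6 members, and coordinates are those of GENCODE vM21. Alternatives were other thresholds, 1 harmonic, a pseudocount of 0.1, normalization undone (value times total UMIs over their mean), depth terms, stages in place of the position, Spearman correlation, subsets of cells, other spans and each culture alone.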

Additional observations from a re-analysis of the deposited data

How the results depend on the processing

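Of 54 alternative values over 9 summary results, 40 kept the count within 1.5 times or moved by less than the spread between the cultures. Another 14 moved and 0 reversed. A reversal could be recorded only for the *Mt2*-*Mt3* correlation and the median r over pairs. For these and the height of the loess lines, 1 culture alone always lies within that spread of the mean. Those alternatives therefore had to count as kept. The count of members that vary along the position was 0 under each alternative that used both cultures, and 0 to 1 with 1 culture alone (*Mt2* passes without culture 2). Over the 71 pathway genes the count was 6 at an R² of 0.02 (*Atox1*, *Gsr*, *Prdx4*, *Selenow*, *Sesn2* and *Sqstm1*), 1 with normalization undone (*Prdx4*) and 1 with depth terms (*Selenow*), and 0 to 4 with 1 culture alone (*Gsr*, *Mt2*, *Prdx4* and *Selenow* without culture 2). The mean *Mt2*-*Mt3* correlation of the cultures was 0.510, between 0.387 and 0.634 with 1 culture alone, and 0.299 with the astroglial score, an alternative chosen after seeing the data, as were all those for *Mt2* in place of *Mt1*. The median r over the 15 pairs was 0.0391, and 0.183 with normalization undone, where depth is shared by all genes. With 1 culture alone it was 0.0123 to 0.0658. The median level over members was 4.04, and the median share of cells above 0 was 83.4%, or 90.7% in cells at or above the median depth of their culture. The median height of the loess lines was 0.22, and 0.26 at a span of 0.2, 0.16 at 0.5, 0.49 with a pseudocount of 0.1 and 0.32 with normalization undone (0.22 to 0.23 with 1 culture alone). The count of members that differ between the cultures was 0, or 1 at the lower fold threshold (*Mt2*) and 2 with normalization undone (*Nqo1* and *Prdx1*). Of the 10 genes most like *Mt2*, 9 remained with Spearman correlation, 9 after position and depth and 7 to 10 with 1 culture alone. For *Mt3* it was 9, 8 and 6 to 9.

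No paired analysis was possible because there is 1 group. Results planned for *Mt1* were not run. With 2 cultures the spread rests on 2 values, and at the lower depth of culture 2 low genes such as *Nqo1* are near the limit of detection.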
